A study of Homo sapiens with 4 samples.

Results

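In all, 10 genes of the WNT signalling pathway are described here, namely the secreted antagonists SFRP1, SFRP2, FRZB and DKK1, the ligand WNT5A, the target genes AXIN2, SP5 and RNF43, and the transcription factors TCF7 and LEF1. They were chosen by name and make up 10 of the 27685 gene IDs in the files. RNA-seq was done on the cell line NCC-IT-A3, which derives from embryonal carcinoma, a germ cell tumour whose cells resemble those of the early embryo. One group of 2 libraries came from cells exposed to 100 nM barasertib, which inhibits the mitotic kinase Aurora B, over 4 days, and the other group of 2 from cells given DMSO, the solvent control. Both groups grew in RPMI medium with serum. The labels do not tell whether replicate libraries were grown as separate cultures. The p-values rest on the spread between libraries of the same group, shared in part over all tested genes, and that spread may be technical.

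WNT proteins are secreted lipid-modified ligands that bind Frizzled receptors with LRP5 or LRP6. In the canonical branch this stops the degradation of beta-catenin, which then joins TCF/LEF factors on DNA and switches on targets, several of which (AXIN2, RNF43, DKK1) act back on the pathway as inhibitors. SFRP proteins and FRZB bind WNT ligands outside the cell, DKK1 blocks the LRP co-receptors, and WNT5A is best known for signalling that does not use beta-catenin. In pluripotent cells WNT activity is tied to self-renewal and to entry into the primitive streak lineages.

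Values are TPM, transcript abundance scaled by transcript length to a fixed total per library, so that levels can be set side by side between genes. They are given as mean ± SD with n = 2 per group, and log2 changes are differences of mean log2(TPM + 1), which understate the change of low genes. Of the 10 genes, 9 reached the mean of 1 TPM asked for in the test, and DKK1 did not. With barasertib SFRP2, SFRP1 and AXIN2 rose, and WNT5A, SP5, RNF43 and TCF7 fell (limma, Benjamini-Hochberg adjusted p under 0.05). FRZB and LEF1 did not pass. The same test called 29.5% of the 13938 tested genes, 22.0% as higher and 7.44% as lower, against 3 higher and 4 lower among the 9 tested here. The 10 genes were picked with such results in view, so this count is a description. Of the 7 calls, those of AXIN2, RNF43 and TCF7 were lost when any 1 of the 4 libraries was left out.

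**Figure D1:**
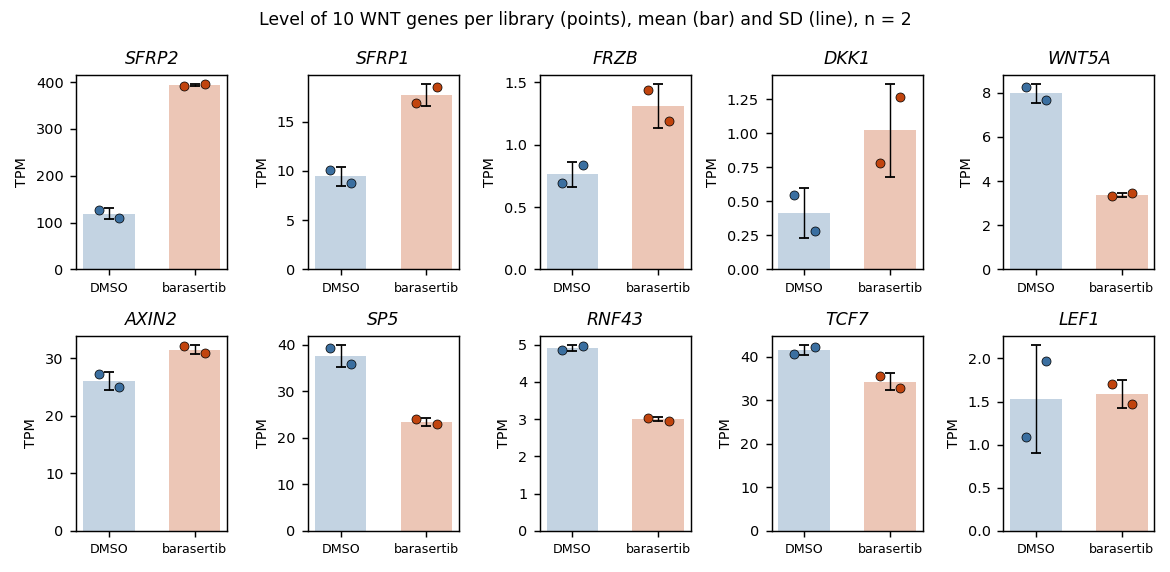
Level of each of the 10 genes in TPM (vertical axis, from 0, its own scale per gene) for DMSO and barasertib; points are libraries, bars the mean and lines the SD, n = 2. The libraries of the groups do not overlap for 9 of the 10 genes, LEF1 being the exception. Over all 13938 tested genes 68.8% did not overlap, and DKK1 was not tested.

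The promoters of SP5 and DKK1 held matches to the TCF/LEF motif. The 250 bases before the annotated start were searched for CTTTGA and its reverse complement TCAAAG, the core of the site that TCF/LEF factors bind, on both strands. Neither word is a palindrome, so no site is counted on both strands. RefSeq promoters were at hand for 8 of the 10 genes, 11 promoters in all, not for SFRP1 and AXIN2. SP5 had 3 matches, first bases at 147, 109 and 83 bases before the start, and DKK1 had 2, at 149 and 95 bases. The other 9 promoters had none. Among all 35116 promoters of this length, 11.2% held at least 1 match and 0.98% held 2 or more. The promoters with matches are printed below beside that of SFRP2, the one of the 10 genes with the largest log2 change, which has none; capitals mark the matches.
SP5 (chr2:170715087-170715336, GRCh38.p14, plus strand): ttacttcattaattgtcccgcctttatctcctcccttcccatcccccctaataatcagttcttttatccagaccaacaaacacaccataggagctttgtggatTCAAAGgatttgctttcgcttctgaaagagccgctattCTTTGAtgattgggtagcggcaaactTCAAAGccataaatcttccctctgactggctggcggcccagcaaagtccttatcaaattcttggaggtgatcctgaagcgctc
DKK1 (chr10:52314031-52314280, GRCh38.p14, plus strand): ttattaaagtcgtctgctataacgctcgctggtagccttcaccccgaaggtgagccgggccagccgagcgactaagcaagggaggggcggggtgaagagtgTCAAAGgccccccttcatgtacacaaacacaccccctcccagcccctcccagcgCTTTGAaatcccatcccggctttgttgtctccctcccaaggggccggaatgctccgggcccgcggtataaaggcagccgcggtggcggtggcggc
SFRP2 (chr4:153789084-153789333, GRCh38.p14, minus strand): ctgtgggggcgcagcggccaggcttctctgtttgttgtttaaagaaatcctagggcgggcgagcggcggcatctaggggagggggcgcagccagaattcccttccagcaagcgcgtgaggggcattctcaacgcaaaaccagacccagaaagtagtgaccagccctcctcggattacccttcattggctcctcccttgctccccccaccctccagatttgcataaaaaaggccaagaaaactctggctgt
A match is a stretch of letters and not a measured binding site. SP5 fell with barasertib, and DKK1 lay below the minimum level of the test.

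Of the 4 secreted antagonists in the set, SFRP2 was the most abundant and had the largest change. SFRP2 (gene ID 6423, hg19 chromosome 4, 154701742 to 154710228, minus strand) was at 128 and 111 TPM in the DMSO libraries and at 391 and 396 TPM in the barasertib libraries. Both barasertib libraries lay above both DMSO libraries, and they differed from each other far less than from the controls. Its mean rose from 119 ± 12.1 to 394 ± 2.86 TPM, a ratio of 3.3 (log2 change 1.72, 95% interval 1.54 to 1.89, limma adjusted p = 0.000197). By size of log2 change SFRP2 stood at place 54 of the 13938 tested genes. The mean read depth over the gene, as deposited, was 215 to 237 in the DMSO libraries and 770 to 779 in the barasertib libraries.

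SFRP1 moved the same way at a lower level. SFRP1 (gene ID 6422, hg19 chromosome 8, 41119476 to 41166990, minus strand) was at 10.1 and 8.77 TPM with DMSO and at 16.9 and 18.5 TPM with barasertib, with no overlap. The rise from 9.45 ± 0.967 to 17.7 ± 1.13 TPM had a log2 change of 0.84 (95% interval 0.60 to 1.09, limma adjusted p = 0.00303). SFRP1 and SFRP2 kept their calls in all 15 alternative settings, including each library left out in turn.

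FRZB, also known as SFRP3, and DKK1 were near the lower end of detection. FRZB (gene ID 2487, hg19 chromosome 2, 183698005 to 183731498, minus strand) was at 0.689 and 0.834 TPM with DMSO and at 1.44 and 1.19 TPM with barasertib. Its groups did not overlap, but the log2 change of 0.39 had a 95% interval of -0.08 to 0.86 (limma adjusted p = 0.173), and its mean of 1.04 TPM only just passed the minimum, which it did through the barasertib libraries. DKK1 (gene ID 22943, hg19 chromosome 10, 54074041 to 54077417, plus strand) was at 0.546 and 0.286 TPM with DMSO and at 0.781 and 1.26 TPM with barasertib, a mean of 0.719 TPM over the 4 libraries. Without the minimum, DKK1 had a log2 change of 0.51 (limma adjusted p = 0.122 over 20052 genes), which is not past the threshold. Read depth over these genes was 1.28 to 2.86 for FRZB and 0.555 to 2.46 for DKK1.

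Within the family of 5 genes (SFRP1, SFRP2, FRZB, SFRP4 and SFRP5), SFRP2 made up 92.0 and 91.7% of the summed TPM with DMSO and 95.0 and 94.8% with barasertib. The summed level was 139 and 121 TPM with DMSO and 412 and 417 TPM with barasertib. Of the 14 other antagonists listed, 8 were tested. SFRP5, KREMEN2, IGFBP4 and DRAXIN rose, and the remaining 4 did not pass, while 22.0% of all tested genes were called higher. SFRP5 went from 0.351 ± 0.129 to 2.04 ± 0.201 TPM (log2 change 1.17), still far below SFRP2. Like FRZB, it passed the minimum through the barasertib libraries, where it is high, so its call is a description. KREMEN2, a receptor for DKK proteins, went from 1.07 ± 0.318 to 3.51 ± 0.779 TPM (log2 change 1.12; limma adjusted p = 0.0734, past the threshold no longer, with barasertib replicate 1 left out). IGFBP4, a binding protein of insulin-like growth factors that also inhibits WNT receptors, rose from 6.96 ± 0.828 to 16.2 ± 0.430 TPM. DRAXIN, a guidance protein that antagonises WNT through LRP6, is named after its values were seen and was not followed singly under the alternative settings. It was the most abundant of these, with 137 ± 3.25 TPM in the controls and 164 ± 8.97 TPM in treated cells. Its log2 change of 0.25 (limma adjusted p = 0.0207) was only 0.14 above the median over all tested genes. The median log2 change of the 8 tested antagonists was 0.19, against 0.11 over all tested genes.

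WNT5A, the ligand of the set, fell. WNT5A (gene ID 7474, hg19 chromosome 3, 55499743 to 55521670, minus strand) was at 8.27 and 7.67 TPM in the DMSO libraries and at 3.31 and 3.45 TPM in the barasertib libraries. All barasertib values lay below the DMSO values, and the spread within each group was small against the gap. The mean fell from 7.97 ± 0.427 to 3.38 ± 0.0983 TPM, a log2 change of -1.03 (95% interval -1.30 to -0.77, limma adjusted p = 0.00209), and the call held in all 15 alternative settings.

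Of 18 other WNT genes, 12 were below a mean of 1 TPM and 6 were tested. Of these, WNT10B and WNT3, ligands of the canonical branch, rose, and WNT5B, WNT8A, WNT9A and WNT11 did not pass. Called higher were 22.0% of all tested genes. WNT10B was at 2.09 and 1.84 TPM with DMSO and at 9.0 and 6.43 TPM with barasertib (log2 change 1.54, limma adjusted p = 0.00243). WNT3 was at 2.01 and 2.11 TPM with DMSO and at 4.98 and 4.58 TPM with barasertib (log2 change 0.92, limma adjusted p = 0.00535). The make-up of the ligand pool therefore differed between the groups. WNT5A made up 29.1 and 27.7% of the summed TPM of the 19 WNT genes with DMSO and 9.16 and 9.50% with barasertib, while WNT10B made up 7.34 and 6.64% and then 24.9 and 17.7%. The summed ligand level was 28.5 and 27.7 TPM with DMSO and 36.1 and 36.3 TPM with barasertib. WNT8A, with 10.5 and 10.9 TPM in the DMSO libraries and 10.3 and 14.3 TPM in the barasertib libraries, was the most abundant ligand in each library, and its groups overlapped (log2 change 0.17, limma adjusted p = 0.414).

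**Figure D2:**
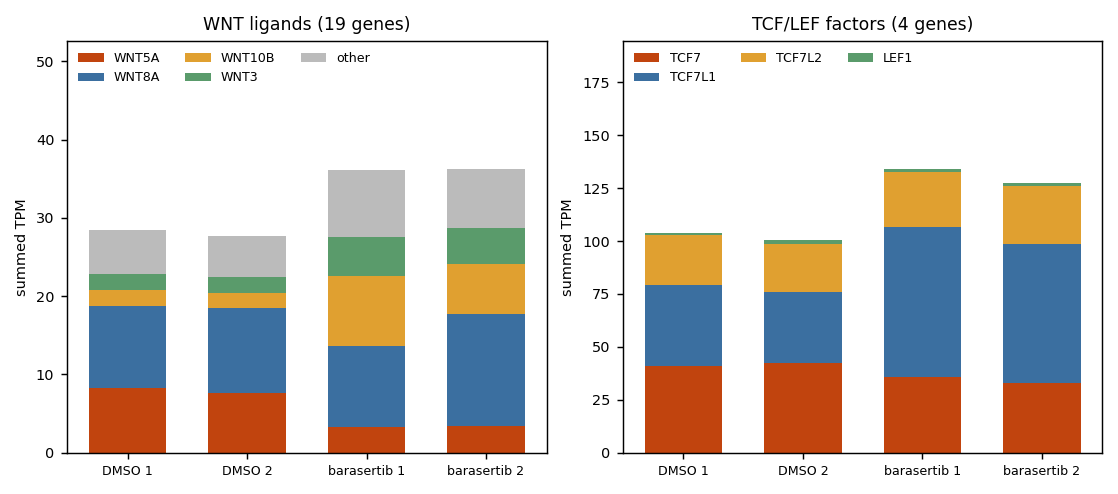
Summed TPM (vertical axis) of the 19 WNT ligand genes (left) and of the 4 TCF/LEF genes (right) in each of the 4 libraries, split by gene. WNT5A shrank from 29.1 and 27.7% of the ligand sum with DMSO to 9.16 and 9.50% with barasertib, and TCF7L1 grew from 37.1 and 33.4% of the TCF/LEF sum to 52.9 and 51.4%.

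Of the genes that handle ligands, WLS, the carrier that takes WNT proteins to the cell surface, fell from 38.5 ± 4.5 to 18.3 ± 1.19 TPM, with 35.4 and 41.7 TPM in the DMSO libraries and 19.1 and 17.4 TPM in the barasertib libraries (log2 change -1.03, limma adjusted p = 0.00157). PORCN, which attaches the lipid, and NOTUM, which removes it, did not pass (limma adjusted p = 0.078 and 0.115). Of the 16 receptor genes, all tested, FZD4 and LRP5 rose and 14 did not pass, while 29.5% of all tested genes were called. The median log2 change of the 16 was -0.080, against 0.11 over all tested genes. FZD4 went from 3.51 ± 0.0167 to 5.44 ± 0.112 TPM and LRP5 from 14.9 ± 0.351 to 20.0 ± 0.717 TPM. FZD4 no longer passed with any single library left out (limma adjusted p from 0.0617 to 0.0887) or after quantile normalisation (0.0839), nor LRP5 with barasertib replicate 1 left out (0.0618). The most abundant receptor, FZD7, averaged 125 ± 6.61 TPM in the controls and 113 ± 2.04 TPM in treated cells (limma adjusted p = 0.109).

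The feedback genes and direct targets did not move together. SP5, a zinc finger factor that represses genes and is a direct target of beta-catenin and TCF in many cells, fell. SP5 (gene ID 389058, hg19 chromosome 2, 171571857 to 171574498, plus strand) was at 39.3 and 36.0 TPM with DMSO and at 24.1 and 22.9 TPM with barasertib. The groups did not overlap, and the fall from 37.6 ± 2.34 to 23.5 ± 0.830 TPM had a log2 change of -0.66 (95% interval -0.84 to -0.48, limma adjusted p = 0.00249). The SP5 call held in all 15 alternative settings. A noncoding gene on the other strand, ERICH2-DT, covers all 2642 bases of SP5, and whether strand was used in counting is not given. ERICH2-DT was at 0.361 to 1.30 TPM in the 4 libraries.

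RNF43, a membrane ubiquitin ligase that removes Frizzled receptors from the surface, fell as well. RNF43 (gene ID 54894, hg19 chromosome 17, 56429861 to 56494943, minus strand) was at 4.86 and 4.97 TPM with DMSO and at 3.04 and 2.96 TPM with barasertib, with no overlap and little spread within groups. At one end of RNF43, 1228 bases lie under TSPOAP1-AS1 on the other strand, which was at 0.122 to 0.373 TPM. The log2 change of -0.56 (95% interval -0.85 to -0.27, limma adjusted p = 0.0179) kept its direction without any 1 of the 4 libraries, but its adjusted p was then 0.0608 to 0.0698. ZNRF3, the ligase paired with RNF43 in function, averaged 6.37 ± 0.995 TPM in the controls and 6.46 ± 0.204 TPM in treated cells (log2 change 0.02, 95% interval -0.29 to 0.33). LGR4, a receptor for the R-spondins that restrain both ligases, was at 94.7 and 40.6 TPM with DMSO and at 89.3 and 93.0 TPM with barasertib. DMSO replicate 2 stood apart there, and the log2 change of 0.55 (limma adjusted p = 0.279) became 1.15 without DMSO replicate 1 (adjusted p = 0.000188) and -0.05 without DMSO replicate 2 (adjusted p = 0.664). The options of StringTie are not given, so whether the LGR4 transcript or only its summary differed between the DMSO libraries is not known. The R-spondin genes themselves and LGR5 and LGR6 were below the minimum.

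AXIN2, a scaffold of the complex that degrades beta-catenin and a widely used readout of canonical signalling, went the other way. AXIN2 (gene ID 8313, hg19 chromosome 17, 63524683 to 63557740, minus strand) was at 27.2 and 24.9 TPM with DMSO and at 32.1 and 30.9 TPM with barasertib. The barasertib libraries lay just above the DMSO libraries, with a rise from 26.1 ± 1.61 to 31.5 ± 0.785 TPM and a log2 change of 0.26 (95% interval 0.09 to 0.44, limma adjusted p = 0.0404). AXIN2 lay 0.15 above the median over all tested genes, which was 0.11 in TPM. AXIN2 did not pass under median-of-ratios scaling (log2 change 0.13, limma adjusted p = 0.235) and quantile normalisation (0.17 and 0.150), which move that median by -0.12 and -0.12. It also lost its call with FPKM (limma adjusted p = 0.0568), without the minimum level (0.0683) and without the mean-variance trend (0.0747). Nor did it pass with any single library left out (limma adjusted p from 0.0547 to 0.180).

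Of the 15 other genes listed as targets, 11 were tested, 7 rose and CRIPTO fell. Over all tested genes 22.0% were called higher and 7.44% lower. SP8, NKD1 and TNFRSF19 did not pass (log2 changes 0.11, -0.086 and -0.25). BAMBI, which acts as a decoy receptor for TGF-beta and BMP ligands, rose from 34.2 ± 3.79 to 85.4 ± 3.42 TPM (log2 change 1.30, limma adjusted p = 0.000571). CCND1, which encodes cyclin D1, was at 63.7 and 57.3 TPM with DMSO and at 123 and 120 TPM with barasertib (log2 change 1.00, limma adjusted p = 0.000571). The homeobox gene MSX1 rose from 1.49 ± 0.00414 to 3.98 ± 0.891 TPM, though not past the threshold with barasertib replicate 1 left out (limma adjusted p = 0.0618). NKD2, CCND2, MIXL1, MSX2 and CRIPTO are named after their values were seen. They were not followed singly under the alternative settings, so whether each call holds there is not given. NKD2, which binds Dishevelled and restrains the pathway, rose from 5.46 ± 0.353 to 11.5 ± 1.31 TPM, and MSX2 rose from 21.9 ± 1.71 to 35.3 ± 1.5 TPM. CCND2 and MIXL1 rose by 0.46 and 0.69 on the log2 scale. CRIPTO, a co-receptor of Nodal, fell from 606 ± 13.8 to 486 ± 39.6 TPM. The median log2 change of these 11 tested targets, SP5 and AXIN2 not included, was 0.66, against 0.11 over all tested genes. Many of these genes also respond to other signals, BMP signalling among them for MSX1 and MSX2.

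Among the TCF/LEF factors, TCF7 fell and LEF1 did not pass. TCF7, also known as TCF1 (gene ID 6932, hg19 chromosome 5, 133450389 to 133483920, plus strand), was at 40.8 and 42.4 TPM with DMSO and at 35.7 and 32.9 TPM with barasertib. The groups did not overlap, and the fall from 41.6 ± 1.14 to 34.3 ± 1.95 TPM was small, at a log2 change of -0.27 (95% interval -0.44 to -0.10, limma adjusted p = 0.0312). The call passed under median-of-ratios scaling (log2 change -0.40) and quantile normalisation too, but not with any single library left out (limma adjusted p from 0.0534 to 0.122), nor without the minimum level (0.0555) or the mean-variance trend (0.0690). LEF1 (gene ID 51176, hg19 chromosome 4, 108968701 to 109090112, minus strand) was at 1.09 and 1.97 TPM with DMSO and at 1.70 and 1.47 TPM with barasertib. The barasertib libraries lay between the DMSO libraries, and the log2 change of 0.05 had a 95% interval of -0.49 to 0.59 (limma adjusted p = 0.877), with a sign that changed between settings. LEF1-AS1 on the other strand overlaps 1432 bases of LEF1 and was at 0.0335 to 0.130 TPM. Read depth over LEF1 was 1.68 to 3.15.

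The other 2 TCF genes were TCF7L1, which acts mostly as a repressor in pluripotent cells, and TCF7L2. TCF7L1 was at 38.6 and 33.6 TPM with DMSO and at 71.0 and 65.5 TPM with barasertib, a log2 change of 0.90 (95% interval 0.70 to 1.11, limma adjusted p = 0.00146). With DMSO TCF7 made up 39.2 and 42.2% of the summed TPM of the 4 factors and TCF7L1 37.1 and 33.4%. With barasertib TCF7 made up 26.6 and 25.8% and TCF7L1 52.9 and 51.4%. TCF7 was thus the more abundant in the DMSO libraries and TCF7L1 in the barasertib libraries. TCF7L2, at 23.1 ± 0.724 and 26.6 ± 1.18 TPM, did not pass (limma adjusted p = 0.0866).

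Of the 12 other nuclear genes listed, 11 were tested, TLE2, TCF7L1, TLE1 and CHD8 rose, and 7 did not pass. The share called among all tested genes, 29.5%, stands beside this count and those of the lists that follow. TLE2, a Groucho co-repressor that binds TCF factors, was at 1.09 and 0.966 TPM with DMSO and at 4.48 and 4.41 TPM with barasertib (log2 change 1.42, limma adjusted p = 0.00186). TLE1, of the same family, rose from 64.9 ± 3.69 to 82.9 ± 2.82 TPM, which did not pass under median-of-ratios scaling (limma adjusted p = 0.0575) or with barasertib replicate 1 left out (0.0628). CHD8, a chromatin remodeller named after its values were seen, rose by 0.30 on the log2 scale. CHD8 was not followed singly under the alternative settings. CTNNB1, which encodes beta-catenin, averaged 403 ± 15.9 TPM in the controls and 410 ± 8.85 TPM in treated cells (log2 change 0.03, 95% interval -0.08 to 0.14). Of the 16 tested genes of cytoplasmic transduction, CTNNB1 included, CSNK1A1 rose, from 166 ± 19.6 to 211 ± 11.6 TPM. CSNK1A1, a kinase that primes beta-catenin for degradation, lost its call under both other scalings (limma adjusted p = 0.122 and 0.0900) and with barasertib replicate 1 (0.0808), its replicate 2 (0.145) or DMSO replicate 1 (0.0674) left out. Of 11 planar polarity genes, VANGL2 and PRICKLE1 rose and INVS fell, with log2 changes of 0.49, 0.25 and -0.45. PRICKLE1 passed neither with any single library left out (limma adjusted p from 0.0509 to 0.0994) nor under both other scalings (limma adjusted p = 0.190 and 0.116). INVS did not pass with either barasertib library left out (0.0881 and 0.0982 for replicates 1 and 2) or with DMSO replicate 2 left out (0.120).

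**Figure D3:**
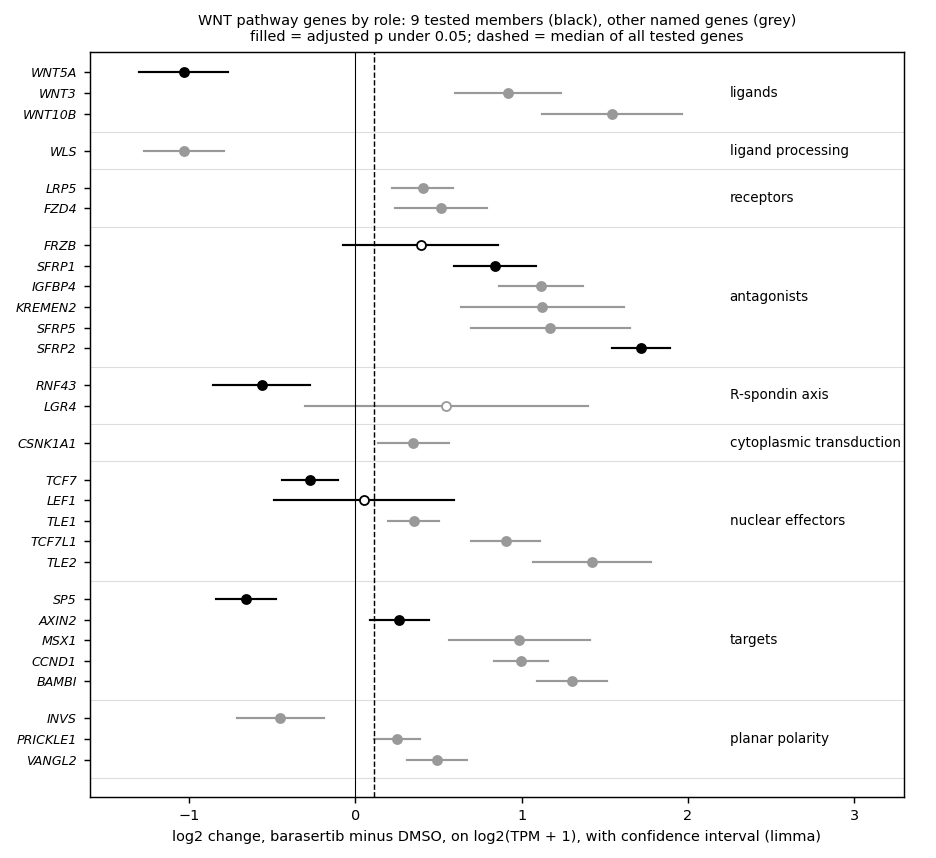
Log2 change of TPM + 1, barasertib minus DMSO (horizontal axis), with the 95% interval of limma for the 9 tested genes of the set (black) and the 19 other named pathway genes (grey), grouped by role; filled points passed the test and the dashed line is the median of all tested genes, 0.11. SFRP2 is farthest to the right at 1.72, and WNT5A and WLS are farthest to the left at -1.03.

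Over all 9 lists, 84 of the 114 pathway genes outside the set were tested, and 22 rose and 3 fell. That is 29.8% called, close to the 29.5% of all tested genes. Their median log2 change was 0.13, against 0.11 over all tested genes. Under median-of-ratios scaling 17 rose and 10 fell, and under quantile normalisation 16 rose and 9 fell; 15 rose and 3 fell under all 3 scalings. Over all genes, 74.8% of the calls were higher in TPM, 44.8% after median-of-ratios scaling and 50.9% after quantile normalisation. Of the 10 genes of the set, SFRP1 and SFRP2 rose and WNT5A, SP5, RNF43 and TCF7 fell under all 3 scalings. Without barasertib replicate 1, 11 of the other pathway genes rose. The barasertib and DMSO libraries did not overlap in 8 of the 9 tested genes of the set, against 68.8% of all tested genes. FRZB, which passed the minimum through its barasertib libraries, is among the 8. The genes were chosen with earlier results known, so this count too is a description.

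**Figure D4:**
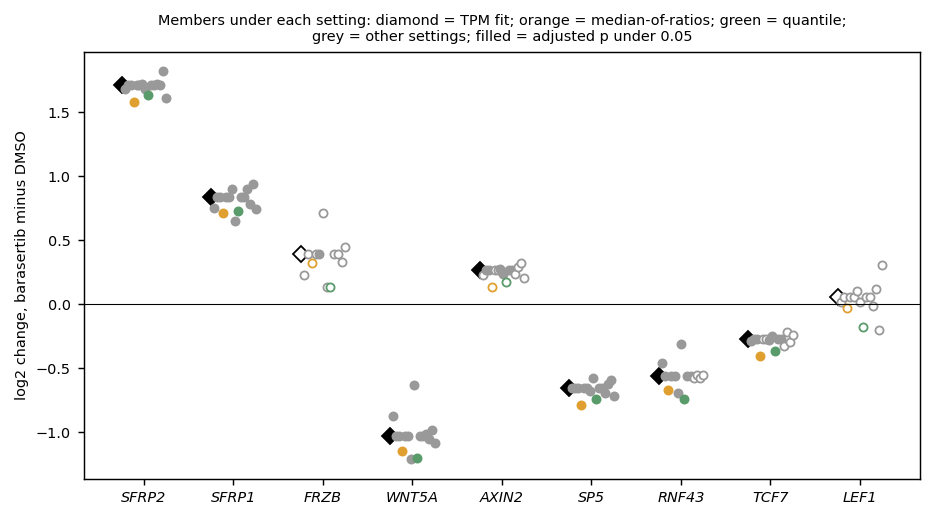
Log2 change, barasertib minus DMSO (vertical axis), of each of the 9 tested genes under the TPM fit (diamond) and each alternative setting (circles; orange for median-of-ratios scaling, green for quantile normalisation, grey for the rest); filled symbols passed the test. SFRP2, SFRP1, WNT5A and SP5 are filled throughout, while LEF1 lies on both sides of 0.

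By level, SFRP2 was the highest of the 10 genes in all 4 libraries. With DMSO it was followed by TCF7, SP5, AXIN2, SFRP1, WNT5A, RNF43, LEF1, FRZB and DKK1, and no neighbours in that order had overlapping libraries. With barasertib AXIN2 stood above SP5, the other places were the same, and only the libraries of FRZB and DKK1 overlapped. The tested genes whose pattern over the 4 libraries lay nearest to that of SFRP2, by Euclidean distance of centred log2(TPM + 1), included LRAT (distance 0.0635) and LRRC55 (0.121). LRAT, an enzyme that esterifies retinol, averaged 17.5 ± 1.98 TPM in the controls and 57.1 ± 0.448 TPM in treated cells. LRRC55 averaged 0.337 TPM in the controls and 3.08 TPM in treated cells, so it passed the minimum only through the barasertib libraries. With 4 libraries in 2 groups, this measure reads little beyond the size of the change.

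As a check of the labelled cell type, all 10 embryonal carcinoma markers were above 1 TPM on average, with POU5F1 at 3524 to 3999 TPM. Blood markers were near 0 (summed 0 TPM with DMSO and 0.423 to 0.617 TPM with barasertib), as were most endoderm, neural, trophoblast and mesenchyme markers. The summed level of 8 mesenchyme and fibroblast markers was 4.58 to 5.81 TPM with DMSO and 9.58 to 10.3 TPM with barasertib, where TWIST1 rose, COL1A1 averaged 0.353 and 1.2 TPM, and COL1A2, DCN and LUM stayed under 0.3 TPM. That of 8 primitive streak and mesoderm markers was 45.7 to 52.4 TPM and 53.5 to 57.8 TPM. Most of it was HAND1, at 38.2 ± 4.89 and 38.4 ± 3.94 TPM, whose groups overlapped (log2 change 0.01). MIXL1 and PDGFRA rose, and EOMES was called too but passed the minimum only through the barasertib libraries. TBXT was at 0 with DMSO and under 0.4 TPM with barasertib. GSC, MESP1 and TBX6 lay below the minimum, and their groups overlapped. The 8 endoderm markers summed to 4.76 to 5.74 TPM and 23.5 to 25.1 TPM, nearly all of it CXCR4, with SOX17 under 0.1 TPM in each library. The sums were also higher for the 10 embryonal carcinoma markers (6564 to 6807 TPM and 7101 to 7410 TPM, where 4 markers were called higher in TPM and 2 lower), for 8 neural markers (80.4 to 80.7 TPM and 97.6 to 108 TPM, where TUBB3 rose) and for 8 trophoblast markers (53.4 to 54.7 TPM and 60.4 to 62.8 TPM). Nearly all of the trophoblast sum was TFAP2C, whose mean went from 52.6 (DMSO) to 59.0 TPM (barasertib). Neither TFAP2C nor GATA3, the 2 tested trophoblast markers, passed (limma adjusted p = 0.0774 and 0.0696). CGB5, ELF5 and KRT7 were not detected in any library. All 7 sums were higher with barasertib, as were SFRP1 and SFRP2, though the blood sum stayed near 0. The sums were taken in TPM only. Over all tested genes the median log2 change was 0.11 in TPM, -0.012 after median-of-ratios scaling and -0.0077 after quantile normalisation. The part of these markers in the results was not tested. In bulk RNA, more cells of a type and more RNA per cell cannot be told apart.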

How the data were processed

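RNA was measured in 4 libraries, 2 per group. Per the submitters' processing notes, HISAT2 (alignment), the build hg19 and StringTie (gene abundance) were used; no source used here gives their versions or whether strand was counted. Per the file headers, the authors deposited coverage (mean read depth, used only as signal for depth), FPKM and TPM per gene row. Deposited TPM summed to 1000000 in each file. Aligned bases, taken as the highest coverage divided by FPKM, as StringTie defines them, came to 4.22 to 4.59 Gb. Read numbers are not given, so no counting intervals were made.

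Rows were summed per gene ID, and RefSeq symbols (GRCh38.p14, names and promoters only) matched 27559 of 27685 IDs. IDs averaging 1 TPM or more were tested with limma 3.58.1 (R 4.3.3) on log2(TPM + 1), group as the only term, trend moderation (degrees of freedom 2 residual, 4.09 prior), two-sided tests, Benjamini-Hochberg adjusted over all 13938 genes at 0.05. Simulated data held 13938 genes, of which 200 were changed in each of 5 runs. There the fit called 61.0% of genes changed 1.5-fold and 84.2% of those changed 2-fold, and 5.10% of its calls were false. The measured libraries gave 4108 calls, far more than the genes changed per run. These simulated rates may therefore not hold for the measured comparison. The members and the 9 pathway lists were chosen with earlier results of these data known. Named outside the set were, per list, up to 3 called genes with the largest log2 change, or the gene with the smallest p, and the 3 genes most like the member with the largest change, of which 1 is not reported here. Promoters were the 250 bases before each start. Alternatives were no minimum, a minimum of 5 TPM, pseudocounts of 0.1 and 5, FPKM, median-of-ratios scaling, quantile normalisation, no trend, robust moderation, the replicate block, each library left out, and the largest row per ID. Python 3.11.15 and matplotlib 3.10.9 made tables and plots.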

Additional observations from a re-analysis of the deposited data

How the results depend on the processing

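The calls of SFRP1, SFRP2, WNT5A and SP5 held in every setting run. Of 130 values of the 9 tested genes under the alternatives, 106 kept direction and side of the threshold, 19 lost the call, 1 gained it (FRZB without the mean-variance trend) and 4 changed sign, all of LEF1: -0.029 after median-of-ratios scaling, -0.18 after quantile normalisation, and -0.010 and -0.20 without barasertib replicate 1 and DMSO replicate 1. With each library left out LEF1 ran from -0.20 to 0.31, and LGR4 from -0.054 (without DMSO replicate 2) to 1.15. Of the 276 values of the 19 other pathway genes named by rule, 245 kept both and 29 lost the call. Genes named after their values were seen are not among the 19. Over all genes, 3071 rose and 1037 fell; median-of-ratios scaling gave 1534 and 1891, quantile normalisation 1649 and 1590, and 674 fell without the mean-variance trend. Leaving out each library gave 1365 to 2181 higher and 601 to 699 lower genes, 2 higher and 2 lower genes of the set, and 11 to 19 higher and 2 to 3 lower other pathway genes. Other pathway genes that fell numbered 10 after median-of-ratios scaling and 9 after quantile normalisation. The cause of these differences was not tested. The fits that leave out a library also have fewer samples, and in them the lone library is assumed to vary like the other group. The replicate numbers did not pair the libraries (r = 0.02 between deviations of same-numbered libraries, 2 pairs); with the replicate block 3218 genes rose and 1080 fell, 3 and 4 of the set and 24 and 3 of the other pathway genes. Whether depth limits the results for FRZB, DKK1 and LEF1, at coverage of 0.555 to 3.15, was not tested.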
